A study of Mus musculus with 14 samples.

Results

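The genes described here lie within 10 Mb of Tlr2 on mouse chromosome 3 or of Tlr4 on mouse chromosome 4. They were chosen by position alone: every gene measured by a probe set with 1 gene symbol that overlaps chromosome 3 from 73836272 to 93841824 or chromosome 4 from 56827551 to 76846581 (GRCm38). These intervals held 287 of the 18820 genes measured, 210 of them around Tlr2 and 77 around Tlr4. The Tlr2 flank was uneven, with 32 genes on the side of lower coordinates and 178 on the side of higher coordinates, which holds the gene-dense S100 and epidermal differentiation clusters. The Tlr4 flank had 65 genes on the lower side and 12 on the higher side. By annotation, 275 of the 287 were protein-coding, and the rest were 5 microRNA genes, 3 transcribed pseudogenes, 2 long noncoding RNA genes, 1 snoRNA gene and 1 snRNA gene. The RefSeq annotation lists 353 protein-coding genes in the same intervals, so not all of them were measured.

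Pancreatic islets came from wild-type C57BL/6 mice (WT) and from Tlr2/Tlr4 double knockout mice on a C57BL/6 background (DKO). All mice were kept free of specific pathogens and ate a diet with 60% fat, begun at an age of 6 weeks. Islets were taken after 5 weeks or 7 months on it, and no group ate another diet. The 5-week groups had 4 WT and 2 DKO arrays and the 7-month groups 4 arrays of each genotype, and the labels describe each array as islets of 1 mouse. Diet time and age rise together and cannot be told apart. The strain of the embryonic stem cells and the number of backcrosses are not given in the sources used here, and the genome of the mice was not typed by the arrays.

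TLR2, which binds bacterial lipoproteins, and TLR4, which binds lipopolysaccharide, are innate immune receptors that signal through MyD88. A mouse carrying a targeted gene is bred to another strain by repeated backcrossing, and genes close to the targeted gene are inherited with it, since few recombinations fall between near neighbours. Such linked genes can keep the sequence of the strain in which the gene was targeted, which is why the neighbours of a knocked-out gene are commonly examined apart from its targets.

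Of the 3 neighbours that differed between the genotypes at both times in 1 direction, Akna and Ctnnal1 have annotated promoters in the sequence table used, and Snord73b has none there. Both genes were higher in DKO arrays at both times, so the 250 bases before each start listed there are shown. The sequences are from RefSeq GRCm38.p6, minus strand, 5′ to 3′. Both Akna windows lie inside the gene as annotated, and the bases before its upstream end are not shown. The Ctnnal1 window overlaps the upstream end of its gene. Capitals mark the GC box GGGCGG.
Akna, start 1, chr4:63403446-63403695: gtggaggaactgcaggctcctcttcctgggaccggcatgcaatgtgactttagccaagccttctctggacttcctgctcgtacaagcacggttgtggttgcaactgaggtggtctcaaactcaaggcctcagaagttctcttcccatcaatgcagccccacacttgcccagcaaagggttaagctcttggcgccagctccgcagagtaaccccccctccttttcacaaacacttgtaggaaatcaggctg
Akna, start 2, chr4:63402604-63402853: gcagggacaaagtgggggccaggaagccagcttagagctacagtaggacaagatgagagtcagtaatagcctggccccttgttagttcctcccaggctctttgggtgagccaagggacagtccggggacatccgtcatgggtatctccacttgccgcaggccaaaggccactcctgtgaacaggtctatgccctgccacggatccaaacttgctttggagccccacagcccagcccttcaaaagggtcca
Ctnnal1, chr4:56865212-56865461: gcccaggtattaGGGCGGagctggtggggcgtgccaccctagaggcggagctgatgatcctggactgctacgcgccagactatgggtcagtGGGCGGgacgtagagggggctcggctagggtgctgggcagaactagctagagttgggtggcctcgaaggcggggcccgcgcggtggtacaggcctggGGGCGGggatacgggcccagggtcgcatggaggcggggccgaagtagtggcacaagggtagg
The windows were searched on both strands for the GC box (GGGCGG), the CCAAT box (the letters of its name) and the TATA box (TATAAA), and no match overlapped another. The Ctnnal1 window held 3 GC boxes, and its GC content was 68.4%. Neither Akna window held any of the 3 motifs, and their GC contents were 54.4% and 57.6%. Among 32851 promoter windows of the same length, 32.7% held the GC box, 33.8% the CCAAT box and 12.4% the TATA box, and the median GC content was 52.4%. These matches describe letters only.

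Values are log2 RMA signals, so a difference of 1 is a doubling of the signal, and rises and falls below are those of the signal. Whether the probes match the genome of the DKO mice in these intervals was not tested. Array medians lay between 3.89 and 3.98, and the lowest correlation between any pair of arrays was 0.978. Ins2 (11.76 to 11.99), Iapp (12.62 to 12.92), Gcg (11.91 to 13.01), Sst (11.58 to 12.91) and Chga (12.67 to 12.84) were near the top of the scale on every array. The Tlr2 signal was lower on all DKO arrays, at 4.77 and 4.82 against 6.22 to 6.62 on WT arrays at 5 weeks and at 5.18 to 5.41 against 6.24 to 6.53 at 7 months. Tlr4 was under the median probe set on every array and did not pass the test at either time, and whether its probe set reads the deleted part was not settled. Pancreatic acinar markers varied between islet preparations. Their mean over 12 genes was 6.19 to 8.39 on WT and 8.83 to 9.23 on DKO arrays at 5 weeks, and 5.3 to 8.64 and 7.86 to 8.29 at 7 months. None of the 12 passed the test at either time, with median differences of 1.18 and 1.12 and groups that overlapped at 7 months. DKO replicate 2 at 7 months had the lowest estimated array weight (0.542). The counts of calls without it are given below, but not which genes gained a call. In whole islets, fewer cells of a type and less RNA per cell cannot be told apart.

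At 5 weeks 7 of the 287 flanking genes passed the test between DKO and WT (limma, adjusted p under 0.05), or 2.44%, against 0.994% of all genes tested. Akna, Ctnnal1, Npr1 and Sema4a were higher in DKO (0.499% of all genes were called higher) and Snord73b, S100a10 and 4930579G24Rik were lower (0.494% of all genes). At 7 months 18 genes passed, or 6.27%, against 4.71% of all genes. Akna, Ctnnal1, Ugcg, Txn1, Svep1, Tle1, Serpini1, Adam15 and Jtb were higher (all genes 2.44%), and Ctso, Tmem131l, Fhdc1, Sh3d19, Snord73b, Dclk2, Insrr, S100a11 and Zfp618 were lower (all genes 2.27%). Akna, Ctnnal1 and Snord73b passed at both times in 1 direction, which is 1.05% of the flanking genes against 0.526% of all genes. The 22 genes called at either time include 20 whose mean signal was above the median probe set, and 2 members at each time differed by more than 2-fold. The 7 calls at 5 weeks became 1, Snord73b, when DKO replicate 1 of that time was left out, 3 or 4 when WT replicate 1 or 2 was, and 11 when DKO replicate 2 of 7 months was. The 18 calls at 7 months became 33 without that last array (8.93% of all genes) and 10 without WT replicate 2 or without DKO replicate 3. With arrays centred on the median, which shifts every gene of an array alike, 3 higher and 4 lower flanking genes were called at 5 weeks. At 7 months 14 higher and 7 lower ones were. Apart from the 8.93%, no share over all genes stands beside these altered counts, so they do not tell flanking genes from the rest.

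Most neighbours of either locus did not pass the test. The median difference over the 287 genes was 0.015 at 5 weeks and 0.036 at 7 months, against 0.008 and 0.014 over all genes. The median size of the difference was 0.142 and 0.122, against 0.121 and 0.117. By locus, 5 of 210 genes around Tlr2 (2.38%) and 2 of 77 around Tlr4 (2.6%) passed at 5 weeks. At 7 months 11 around Tlr2 (5.24%, 3 higher and 8 lower) and 7 around Tlr4 (9.09%, 6 higher and 1 lower) did. Farther genes of the same chromosomes gave 1.04% at 5 weeks and 5.79% at 7 months on chromosome 3, and 1.74% and 5.98% on chromosome 4, while the 16803 genes of other chromosomes gave 0.917% and 4.56%. These shares are descriptions, since neighbouring genes are not independent.

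**Figure D1:**
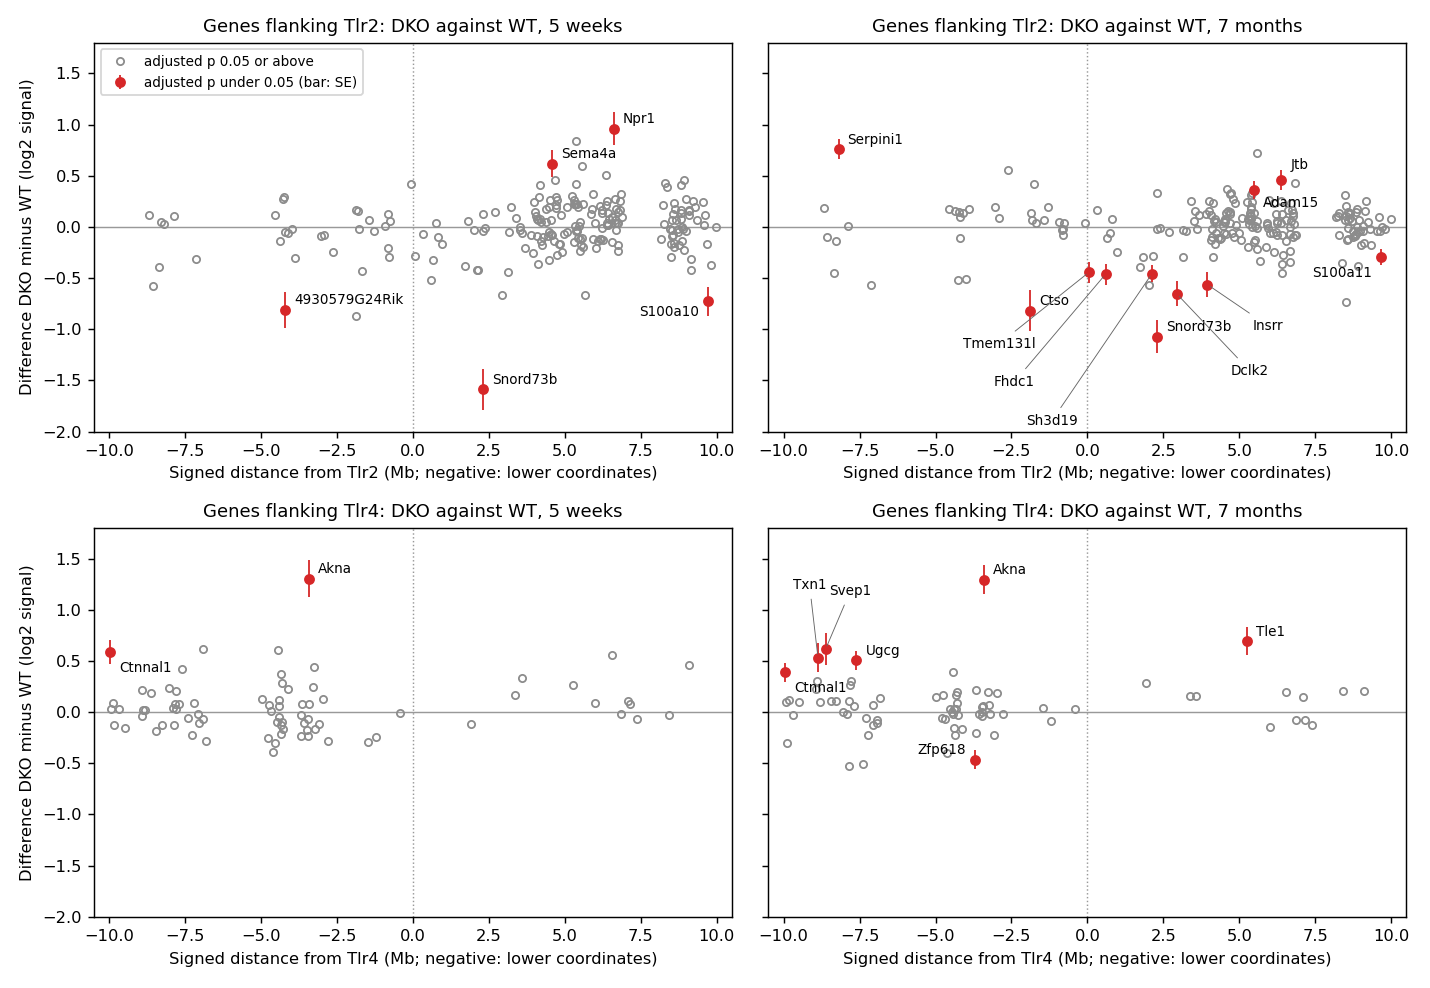
Each point is 1 flanking gene, placed by its signed distance from Tlr2 (top) or Tlr4 (bottom) in Mb on the horizontal axis and by its DKO minus WT difference in log2 signal on the vertical axis, at 5 weeks (left) and 7 months (right). Red points passed the test and carry the standard error as a bar. At 7 months the red points within 5 Mb of Tlr2 all lie below 0, while 6 of the 7 red points around Tlr4 lie above 0.

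Within 2 Mb of either locus 3 of 26 genes passed at 7 months (11.5%) and none of the 26 at 5 weeks; between 2 and 5 Mb 6 of 103 (5.83%) and 4 (3.88%) did, and between 5 and 10 Mb 9 of 158 (5.7%) and 3 (1.9%). Beyond the windows the 7-month shares were 6.94% at 10 to 20 Mb, 4.35% at 20 to 40 Mb and 6.32% farther away, and the 5-week shares were 1.63%, 0.458% and 1.85%. Across the flanking genes, Spearman's rho between distance and the size of the difference was -0.0778 at 5 weeks and -0.0152 at 7 months. It was -0.0282 and -0.104 for the 210 genes around Tlr2, and -0.221 and 0.232 for the 77 around Tlr4. Genes share arrays and neighbours, and no test was made of these coefficients.

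Akna, which encodes an AT-hook protein of centrosomes, had the largest rise among the flanking genes at both times. The gene lies at chr4:63367123-63411094, 3.42 Mb from Tlr4, and was read by probe set 10513666. On WT arrays its signal was 4.12, 4.06, 3.65 and 3.83 at 5 weeks, against 5.32 and 5.11 on DKO arrays. At 7 months it was 4.29, 4.08, 4.28 and 3.66 on WT arrays and 5.18, 5.39, 5.34 and 5.59 on DKO arrays. Every DKO array was above every WT array, across both times. The difference was 1.30 ± 0.18 (SE), or 2.47-fold, at 5 weeks (limma, adjusted p = 0.002) and 1.30 ± 0.15, or 2.45-fold, at 7 months (adjusted p = 0.000109). Without DKO replicate 1 of 5 weeks the 5-week adjusted p was 0.0636. The antisense transcript Aknaos, which overlaps Akna, differed by 0.08 ± 0.11 and 0.06 ± 0.09, and neither value passed the test. With the acinar marker score in the fit Akna differed by 1.24 at both times (adjusted p = 0.0134 and 0.00102).

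Ctnnal1 encodes alpha-catulin, a relative of the catenins that anchor cadherins to actin. It lies at the lower edge of the Tlr4 interval (chr4:56810935-56865375, 9.96 Mb from Tlr4, probe set 10513061). WT arrays gave 6.81, 6.70, 6.86 and 6.64 and DKO arrays 7.23 and 7.44 at 5 weeks. At 7 months WT arrays gave 6.93, 6.93, 7.24 and 7.18 and DKO arrays 7.43, 7.40, 7.59 and 7.41. The genotypes did not overlap at either time. Ctnnal1 rose by 0.58 ± 0.12 (adjusted p = 0.0264) and 0.39 ± 0.10 (adjusted p = 0.0313). The 5-week adjusted p lay between 0.0538 and 0.157 without WT replicate 1, 2 or 4 or either DKO array of that time, and the 7-month one between 0.053 and 0.103 without WT replicate 1 or 2 or DKO replicate 1, 3 or 4. Both calls were also lost with the acinar score in the fit (0.0614 and 0.0538), with only the arrays compared (0.0764 and 0.0756) and with all probe sets tested (0.0552 and 0.0596).

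Snord73b is a box C/D snoRNA gene, 71 bases long at chr3:86140617-86140687, inside the ribosomal protein gene Rps3a1 and 2.30 Mb from Tlr2. Such RNAs guide the methylation of ribosomal RNA. Probe set 10499130 read 6.40, 6.78, 6.34 and 6.35 on WT and 4.54 and 5.23 on DKO arrays at 5 weeks. The 7-month values were 6.51, 6.34, 6.35 and 6.83 on WT and 5.26, 5.28, 5.47 and 5.71 on DKO arrays. All 6 DKO arrays were below all 8 WT arrays. Snord73b fell by 1.59 ± 0.20 on the log2 scale, or 3.01-fold, at 5 weeks (adjusted p = 0.00083) and by 1.07 ± 0.16, or 2.1-fold, at 7 months (adjusted p = 0.00149), and the call held without any 1 array at either time. Its host gene did not follow in its brightest probe set, 10421908: Rps3a1 differed by -0.04 ± 0.10 (95% interval -0.26 to 0.18) and -0.02 ± 0.08 (-0.20 to 0.16). The Rps3a1 probe sets disagreed. In a fit over all probe sets, probe set 10499121 differed by -0.17 and -0.11 without passing. Probe set 10407120 rose by 1.18 (adjusted p = 0.00865) and 0.87 (adjusted p = 0.0069). Which of these probe sets read the host gene itself was not settled. Snord73a, a second snoRNA inside the same host, differed by 0.13 ± 0.17 and 0.33 ± 0.14 and was not called.

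Towards higher coordinates from Tlr2, genes called within 5 Mb at 7 months were all lower in DKO. They were Tmem131l, Fhdc1, Sh3d19, Snord73b, Dclk2 and Insrr, 6 of 65 genes measured there (9.23%, against 4.71% of all genes called and 2.27% called lower). These 6, with Gatb and Prss48, also had every DKO array below every WT array of the same time at both 5 weeks and 7 months, which is 8 of 65 genes (12.3%) against 1.68% of all genes. None of the 65 lay above WT in this way (all genes 1.34%). At 5 weeks 2 of the 65 passed the test (3.08%, all genes 0.994%), with Snord73b lower and Sema4a higher in DKO. Over all 287 flanking genes 11 were below at both times (3.83%) and 6 above (2.09%). The 65 genes were not shifted as a body, since their median difference was -0.046 at 5 weeks and -0.018 at 7 months. The planned counts by distance held neither a split by side nor the measure of arrays wholly below or above. The 6 called genes and the 8 lower ones rest on the same arrays, so these counts are not independent.

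Tmem131l, a transmembrane protein gene, is the nearest measured gene on this side (chr3:83898205-84040190, 0.056 Mb from Tlr2). Its WT signals at 7 months were 6.89, 7.10, 6.98 and 6.94, and its DKO signals 6.82, 6.58, 6.41 and 6.33. The gap between the groups was narrow, with the highest DKO array close under the lowest WT array. Tmem131l fell by 0.44 ± 0.10 at 7 months (adjusted p = 0.0241), and its 5-week difference of -0.29 ± 0.13 did not pass (adjusted p = 0.379). Trim2, a ubiquitin ligase gene that comes next at 0.319 Mb, differed by -0.07 ± 0.15 and 0.17 ± 0.12 and was not called.

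Fhdc1, which encodes a formin that acts on actin and microtubules, lies at chr3:84442191-84480439, 0.60 Mb away. It read 8.48, 8.44, 8.25 and 8.36 on WT arrays and 7.77 and 7.95 on DKO arrays at 5 weeks. At 7 months it read 8.20, 8.20, 8.15 and 8.44 on WT and 7.63, 8.03, 7.69 and 7.78 on DKO arrays. The groups were apart at both times by similar amounts. The 7-month fall of 0.46 ± 0.10 passed (adjusted p = 0.0178) and the 5-week difference of -0.52 ± 0.12 did not (adjusted p = 0.0652).

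Sh3d19, an SH3-domain adaptor gene of membrane traffic at chr3:85970805-86130526 (2.13 Mb), read 7.08, 7.00, 7.02 and 7.15 on WT and 6.53 and 6.75 on DKO arrays at 5 weeks. Its 7-month values were 7.19, 7.27, 7.34 and 7.21 on WT and 6.73, 6.65, 6.87 and 6.94 on DKO arrays. WT arrays lay close together and DKO arrays well below them. Sh3d19 fell by 0.46 ± 0.09 at 7 months (adjusted p = 0.00646), and the call held without any 1 array. The 5-week difference was -0.42 ± 0.10 (adjusted p = 0.0749).

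Dclk2, a doublecortin-like kinase gene at chr3:86786150-86920952 (2.94 Mb), read 5.54, 5.65, 5.26 and 5.13 on WT and 4.91 and 4.54 on DKO arrays at 5 weeks. At 7 months it read 5.47, 5.58, 5.34 and 5.42 on WT and 4.96, 4.79, 4.61 and 4.83 on DKO arrays. Again no DKO array reached a WT array. Dclk2 fell by 0.65 ± 0.12 at 7 months (adjusted p = 0.00691, held without any 1 array), and at 5 weeks the difference was -0.67 ± 0.15 (adjusted p = 0.0503).

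Insrr encodes the insulin receptor-related receptor, a relative of the insulin receptor that responds to alkaline pH. At chr3:87796908-87816101 (3.96 Mb) it read 9.64, 9.77, 9.73 and 9.82 on WT and 9.49 and 9.49 on DKO arrays at 5 weeks. Its 7-month signals were 9.95, 9.98, 9.94 and 9.80 on WT and 9.31, 9.77, 9.35 and 8.98 on DKO arrays. DKO replicate 2 at 7 months lay just under the WT arrays and the other DKO arrays far below. Insrr fell by 0.56 ± 0.13 at 7 months (adjusted p = 0.0183), and the 5-week difference was -0.25 ± 0.15 (adjusted p = 0.566).

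Gatb, a subunit of the mitochondrial glutamyl-tRNA amidotransferase, differed by -0.38 ± 0.15 and -0.39 ± 0.12 (adjusted p = 0.306 and 0.0815). Prss48, a serine protease gene whose signal of 2.45 to 3.21 was under the median probe set, differed by -0.42 ± 0.13 and -0.29 ± 0.11 (adjusted p = 0.187 and 0.163). Neither passed the test. Fbxw7, a ubiquitin ligase subunit gene at 0.973 Mb, and Lrba, a vesicle trafficking gene at 2.38 Mb, lie among these genes. Fbxw7 differed by -0.17 ± 0.11 and -0.24 ± 0.09, and Lrba by -0.02 ± 0.09 and -0.01 ± 0.07, so the lower genes were interspersed with others that did not pass.

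Of the 7-month calls on this side, Tmem131l was lost without WT replicate 2 (adjusted p = 0.0801), WT replicate 3 (0.0584), DKO replicate 3 (0.0823) or DKO replicate 4 (0.0717). Fhdc1 was lost without WT replicate 4 (0.0544), DKO replicate 1 (0.0538) or DKO replicate 3 (0.0601), and Insrr without WT replicate 1 (0.054) or WT replicate 2 (0.0574). Fhdc1 was also lost with the acinar score in the fit (0.0741), and Fhdc1, Tmem131l and Insrr with only the arrays compared (0.0598, 0.0753 and 0.0775). Tmem131l was lost with arrays centred on the median (0.0562) and with all probe sets tested (0.0512). At 7 months stellate and fibroblast markers were also higher in DKO, with 6 of 8 called and means over the 8 genes of 4.79 to 5.06 on WT and 5.62 to 6.41 on DKO arrays, and 3 of 6 islet endocrine markers were called lower. Macrophage markers were called higher in 4 of 10 genes (means 4.84 to 4.99 on WT and 5.04 to 5.64 on DKO arrays), and of 7 endothelial markers 2 were called higher and 1 lower (7.44 to 7.57 and 7.65 to 7.86). The part of these cell types in the differences was not tested.

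**Figure D2:**
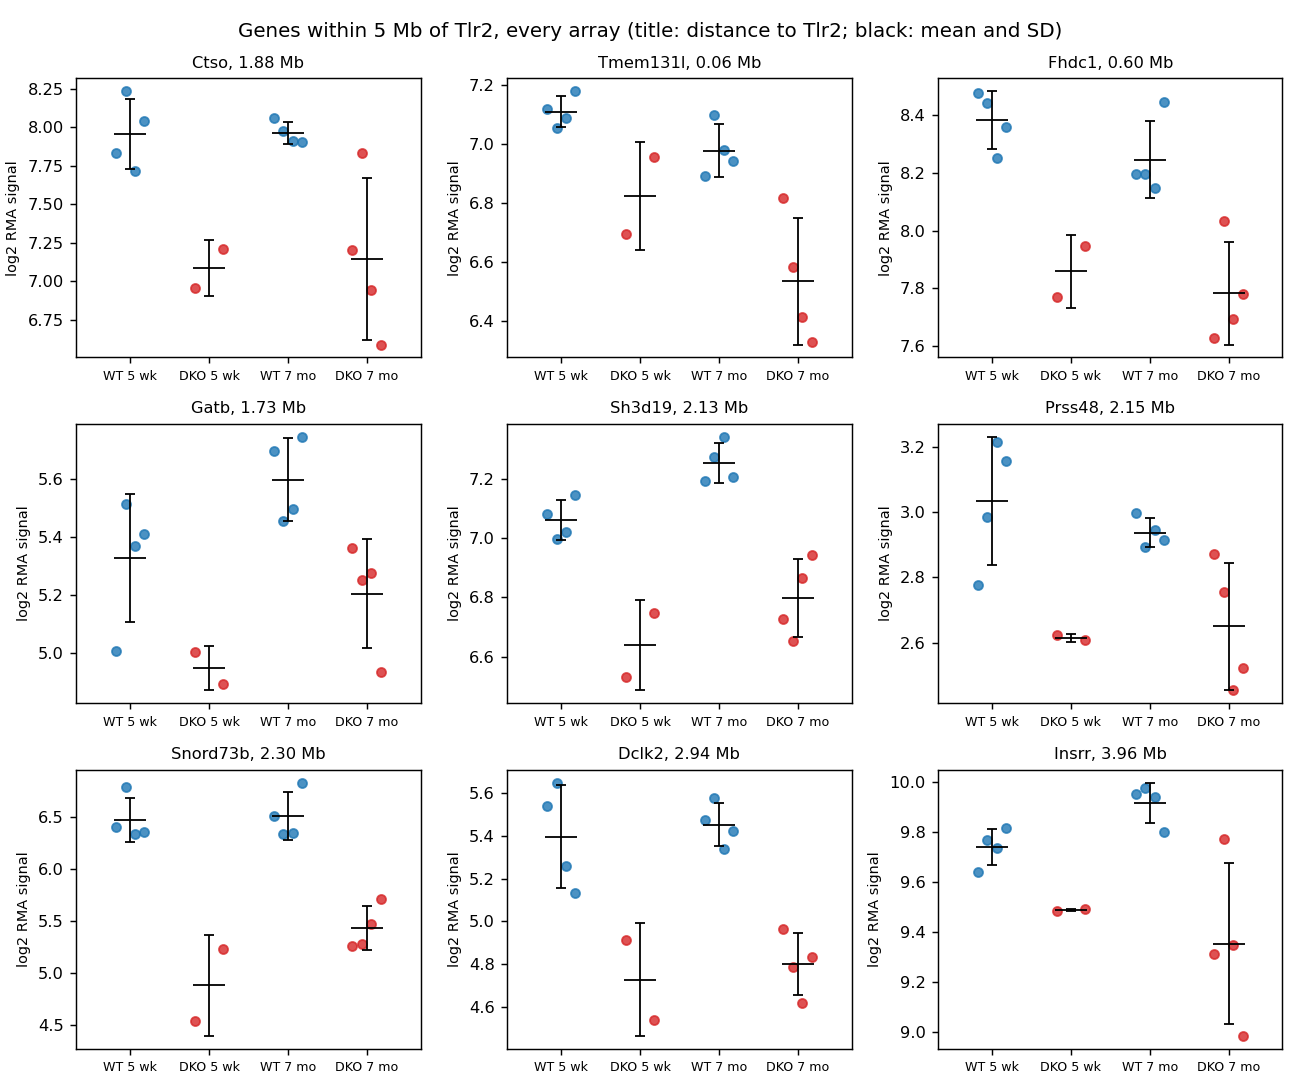
Log2 RMA signal on every array for 9 genes within 5 Mb of Tlr2, by genotype and time, with group means and SD as black bars; each panel has its own vertical scale and gives the distance to Tlr2. These are the genes within 5 Mb whose DKO arrays lie below all WT arrays of the same time at both times. The separation in each panel therefore follows from the choice of genes.

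Grouped by distance on the higher side of Tlr2, DKO arrays were below all WT arrays at both times for 33.3% of 9 genes within 2 Mb and 8.93% of 56 genes at 2 to 5 Mb. The share was 0.885% of 113 genes at 5 to 10 Mb. Farther out it was 4.29% at 10 to 20 Mb, 3.01% at 20 to 40 Mb and 1.23% beyond 40 Mb. Over all genes the share was 1.68%. The nearest bin holds few genes. Genes lying above all WT arrays at both times were absent from the first 10 Mb and made up 5.0% of the 140 genes at 10 to 20 Mb (all genes 1.34%). The shares passing the test at 7 months were 22.2%, 7.14%, 2.65%, 8.57%, 3.01% and 3.09% in the same order of distance (all genes 4.71%).

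**Figure D3:**
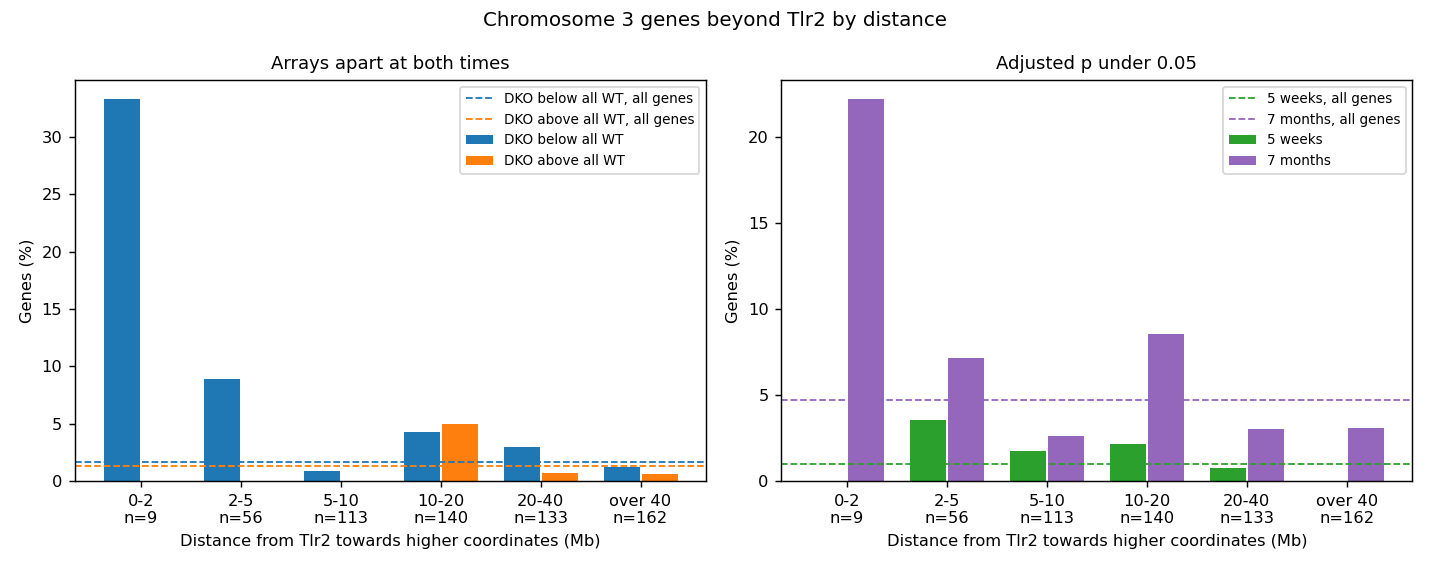
Shares of chromosome 3 genes in percent by distance from Tlr2 towards higher coordinates, with the number of genes under each bin. The left panel counts genes whose DKO arrays lay wholly below or above the WT arrays at both times, the right panel genes that passed the test, and dashed lines give the same shares over all genes. The 0 to 2 Mb bin rests on 9 genes.

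On the lower side of Tlr2, 1 of 25 genes within 5 Mb passed at each time (4.0%), against 0.994% of all genes at 5 weeks and 4.71% at 7 months. Ctso, which encodes the lysosomal protease cathepsin O, lies at chr3:81932601-81956725, 1.88 Mb away. Its WT signals were 7.84, 8.24, 7.72 and 8.04 at 5 weeks and 8.06, 7.97, 7.91 and 7.90 at 7 months. On DKO arrays it read 6.96 and 7.21, and 7.20, 7.83, 6.94 and 6.59. DKO replicate 2 at 7 months lay just under the lowest WT array, and the other DKO arrays were well below. Ctso fell by 0.82 ± 0.20 at 7 months (adjusted p = 0.0285), a call kept without 7 of the 14 arrays taken singly and reaching 0.0903 without DKO replicate 3. It was also lost with the acinar score in the fit (0.0878), with only the arrays compared (0.0831) and with all probe sets tested (0.071). The 5-week difference of -0.87 ± 0.24 was as large and did not pass (adjusted p = 0.118).

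At 4.20 Mb the unnamed gene 4930579G24Rik fell by 0.81 ± 0.18 at 5 weeks (adjusted p = 0.0435), from 3.95, 3.93, 3.94 and 4.06 on WT to 2.90 and 3.42 on DKO arrays. At 7 months its groups overlapped, and the difference was -0.11 ± 0.14. Its 5-week call was kept without 6 of 14 arrays and its adjusted p reached 0.446 without DKO replicate 1. It was also lost under 6 other settings, with an adjusted p up to 0.151 with the acinar score in the fit. The genes nearest Tlr2 on this side did not pass. Sfrp2, a secreted modulator of Wnt signalling at 0.062 Mb, differed by 0.42 ± 0.18 and 0.04 ± 0.15; Plrg1, a splicing factor at 0.764 Mb, by 0.06 ± 0.09 and 0.04 ± 0.07; and Fgb, the fibrinogen beta chain at 0.786 Mb, by -0.30 ± 0.18 and -0.08 ± 0.14.

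Serpini1, the gene of the protease inhibitor neuroserpin (chr3:75557493-75642523, 8.19 Mb), had the smallest 7-month p around Tlr2. It read 6.82, 6.79, 6.88 and 6.91 on WT and 6.62 and 7.14 on DKO arrays at 5 weeks. At 7 months it read 7.29, 7.23, 7.28 and 7.38 on WT and 8.14, 8.0, 8.11 and 7.96 on DKO arrays. The genotypes overlapped at 5 weeks and stood well apart at 7 months. The difference was 0.03 ± 0.12 at 5 weeks and 0.76 ± 0.10, or 1.69-fold, at 7 months (adjusted p = 0.000401, held without any 1 array). The test of the difference between the 2 times gave 0.73 ± 0.16 (adjusted p = 0.0962), which did not pass.

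Beyond 5 Mb, or close to it, on the higher side the calls ran in both directions. Sema4a, a membrane semaphorin gene at 4.59 Mb, rose by 0.62 ± 0.13 at 5 weeks (adjusted p = 0.0377), with WT arrays at 6.24, 6.31, 6.08 and 6.28 and DKO arrays at 7.02 and 6.68. Its 7-month difference was 0.37 ± 0.11 (adjusted p = 0.0625), and WT arrays reached 6.18 where the lowest DKO array was 6.16. Npr1, the natriuretic peptide receptor that makes cyclic GMP, lies at 6.61 Mb. It read 5.41, 5.72, 5.54 and 5.90 on WT and 6.6 and 6.61 on DKO arrays at 5 weeks, and rose by 0.96 ± 0.16, or 1.94-fold (adjusted p = 0.0119). At 7 months WT arrays had 6.06 to 6.14 and DKO arrays 6.0 to 6.69, with a difference of 0.17 ± 0.13. Npr1 did not pass the test of a difference between times (-0.79 ± 0.21, adjusted p = 0.182). Its 5-week adjusted p was 0.112 without DKO replicate 1 and 0.0591 without DKO replicate 2, and that of Sema4a, kept without 5 of 14 arrays, was 0.4 without DKO replicate 1. Sema4a was also lost under 7 other settings, among them the acinar score in the fit (0.131), arrays centred on the median (0.0538) and only the arrays compared (0.0877).

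Adam15, a membrane metalloprotease gene at 5.50 Mb, and Jtb, a small membrane protein gene at 6.39 Mb, rose at 7 months. Adam15 read 6.08, 6.10, 6.15 and 6.15 on WT and 6.51, 6.26, 6.59 and 6.55 on DKO arrays, a rise of 0.36 ± 0.09 (adjusted p = 0.0322). Jtb read 8.20, 8.15, 8.3 and 8.39 on WT and 8.69, 8.47, 8.84 and 8.88 on DKO arrays, a rise of 0.46 ± 0.10 (adjusted p = 0.0161). In both, DKO replicate 2 was the lowest DKO array yet above all WT arrays. At 5 weeks the differences were -0.12 ± 0.11 and 0.02 ± 0.12. Adam15 was kept without 7 of 14 arrays (adjusted p up to 0.104, without DKO replicate 3), and Jtb was lost without WT replicate 1 (0.0528), WT replicate 2 (0.0576), DKO replicate 3 (0.0579) or DKO replicate 4 (0.0511). Adam15 was also lost with the acinar score in the fit (0.0941), with the mean of its probe sets (0.104), with all probe sets tested (0.0571) and with only the arrays compared (0.0735), and Jtb with only the arrays compared (0.0531). A second, dimmer Adam15 probe set differed by 0.14 at 7 months.

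S100a10 and S100a11, small calcium-binding proteins of the S100 family that partner annexins, are neighbours 9.71 and 9.68 Mb from Tlr2. S100a10 fell at 5 weeks by 0.73 ± 0.14 (adjusted p = 0.0198), from 7.68, 7.77, 7.57 and 7.38 on WT to 6.89 and 6.85 on DKO arrays. At 7 months its group means were 7.35 and 7.36, with a 95% interval of the difference from -0.24 to 0.24. S100a11 fell at 7 months by 0.29 ± 0.08 (adjusted p = 0.0448), from 10.68, 10.87, 10.81 and 10.80 to 10.35, 10.49, 10.53 and 10.60, and its 5-week difference was -0.16 ± 0.10. The 2 neighbours were thus called at different times. S100a10 was lost without WT replicate 1 (0.0574), WT replicate 2 (0.0571), DKO replicate 1 (0.163) or DKO replicate 2 (0.0885), and S100a11 was kept without 2 of 14 arrays only and reached 0.131 without WT replicate 2. S100a10 and S100a11 were also lost with the acinar score in the fit (0.0802 and 0.0562) and with only the arrays compared (0.0518 and 0.11). S100a11 was lost, too, with arrays centred on the median (0.0967) and with all probe sets tested (0.0678).

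Around Tlr4 the nearest genes did not pass at either time. On the lower side Astn2, a neuronal membrane protein gene at 0.423 Mb, differed by -0.01 ± 0.23 and 0.03 ± 0.19. Trim32, a ubiquitin ligase gene at 1.21 Mb, differed by -0.24 ± 0.17 and -0.09 ± 0.14, and Pappa, which encodes a protease of insulin-like growth factor binding proteins, at 1.47 Mb, by -0.29 ± 0.12 and 0.04 ± 0.09. On the higher side Brinp1, a neural gene at 1.91 Mb, differed by -0.12 ± 0.14 and 0.28 ± 0.11, and Cdk5rap2, a centrosomal gene at 3.37 Mb, by 0.16 ± 0.11 at 5 weeks and 0.16 ± 0.09 at 7 months. Astn2, Pappa and Brinp1 were under the median probe set. Megf9, a membrane protein gene at 3.59 Mb, read 8.71, 8.35, 8.69 and 8.54 on WT and 8.87 and 8.95 on DKO arrays at 5 weeks, and 8.72, 8.83, 8.91 and 8.82 against 8.93, 8.95, 9.07 and 8.94 at 7 months. Its groups did not overlap at either time, but the differences of 0.33 ± 0.11 and 0.15 ± 0.09 did not pass (adjusted p = 0.194 and 0.385).

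Ugcg, the gene of the enzyme that makes glucosylceramide, the first glycosphingolipid, lies at chr4:59189507-59222833, 7.6 Mb from Tlr4. It read 6.82, 6.40, 6.58 and 6.76 on WT and 7.11 and 7.03 on DKO arrays at 5 weeks. Its 7-month values were 6.61, 6.67, 6.54 and 6.78 on WT and 7.16, 7.15, 7.19 and 7.12 on DKO arrays. The 6 DKO arrays were close together and above all 8 WT arrays. Ugcg rose by 0.50 ± 0.09 at 7 months (adjusted p = 0.00593), and the 5-week difference of 0.43 ± 0.11 did not pass (adjusted p = 0.101).

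Tle1, a Groucho-family transcriptional corepressor gene on the higher side (chr4:72109945-72200989, 5.26 Mb), read 5.26, 5.23, 4.80 and 5.12 on WT and 5.34 and 5.40 on DKO arrays at 5 weeks. At 7 months it read 5.10, 5.02, 5.14 and 5.43 on WT and 5.67, 5.65, 6.11 and 6.05 on DKO arrays. The gap was narrow at 5 weeks and wider at 7 months. Tle1 rose by 0.70 ± 0.13, or 1.62-fold, at 7 months (adjusted p = 0.00749), and its 5-week difference was 0.27 ± 0.16. The Ugcg and Tle1 calls of 7 months held without any 1 array.

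Zfp618, a zinc finger gene 3.69 Mb from Tlr4 and close to Akna with the opposite sign, read 6.46, 6.61, 6.78 and 6.35 on WT and 5.95, 6.18, 6.12 and 6.10 on DKO arrays at 7 months. It fell by 0.46 ± 0.10 (adjusted p = 0.0122). At 5 weeks the WT arrays read 6.65, 6.71, 6.55 and 6.69 and the DKO arrays 6.34 and 6.48, a difference of -0.24 ± 0.12 that did not pass. The groups did not overlap at either time. Zfp618 held without any 1 array but not when only the arrays compared were fitted (adjusted p = 0.053).

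Txn1, which encodes the redox protein thioredoxin, at 8.87 Mb, and Svep1, an extracellular matrix protein gene at 8.62 Mb, are neighbours called only narrowly at 7 months. Txn1 read 8.29, 8.24, 8.39 and 8.56 on WT and 8.99, 8.42, 9.02 and 9.18 on DKO arrays, so that DKO replicate 2 lay among the WT arrays, and rose by 0.53 ± 0.14 (adjusted p = 0.0484). Svep1, whose mean was under the median probe set, read 3.45, 3.11, 3.57 and 3.46 on WT and 3.74, 3.83, 4.00 and 4.48 on DKO arrays and rose by 0.61 ± 0.15 (adjusted p = 0.0348). At 5 weeks the differences were 0.02 ± 0.18 and 0.19 ± 0.19. Stellate and fibroblast markers, among them matrix genes, were also higher on DKO arrays at 7 months, and their part in these values was not tested. Txn1 was kept without 3 of 14 arrays (adjusted p up to 0.135, without DKO replicate 4), and Svep1 was lost without WT replicate 1 (0.0728), 2 (0.111) or 4 (0.0601) or DKO replicate 3 (0.0815) or 4 (0.0783). Txn1 and Svep1 were also lost with the acinar score in the fit (0.0572 and 0.0832), with only the arrays compared (0.113 and 0.0853) and with all probe sets tested (0.101 and 0.0793), and Txn1 with the mean of its probe sets (0.0659). A second Txn1 probe set, 10513195, had a mean signal of 8.345, against 8.581 for the brightest. In the fit over all probe sets it differed by 0.42 ± 0.15 at 7 months and did not pass (adjusted p = 0.219).

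**Figure D4:**
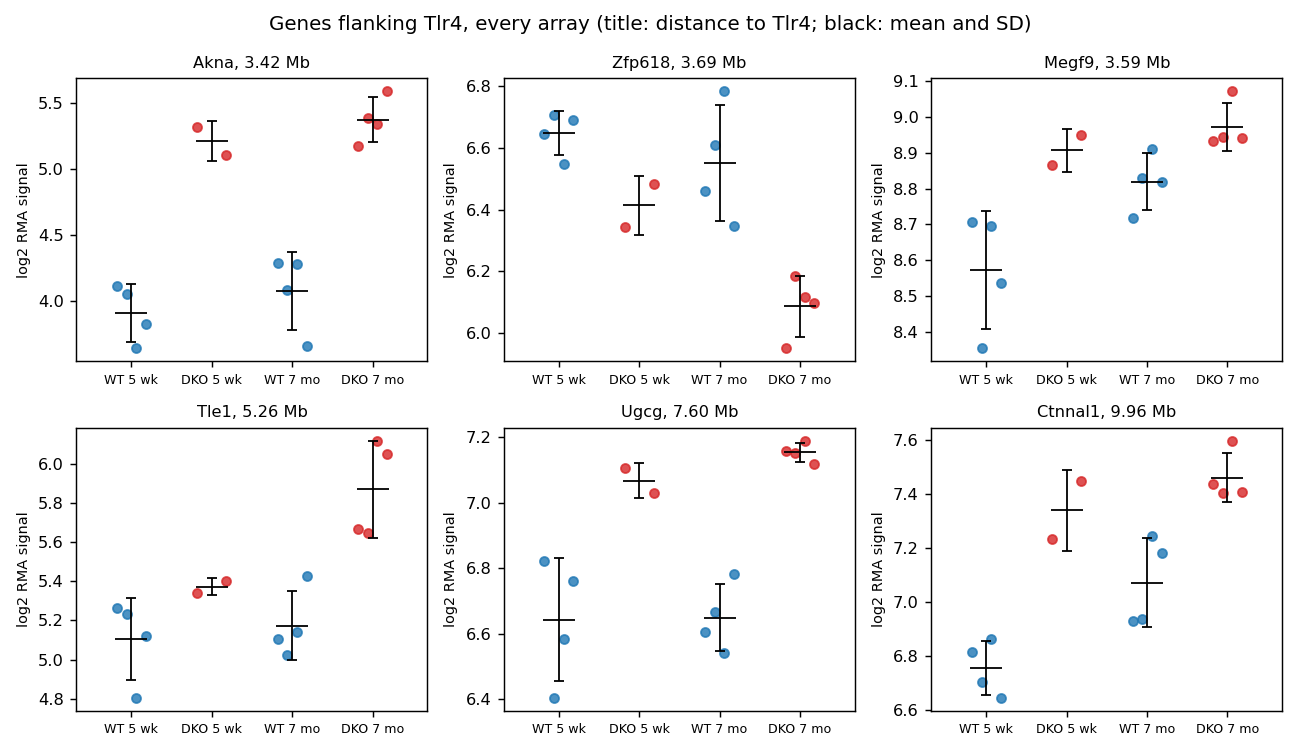
Log2 RMA signal on every array for 6 genes flanking Tlr4, by genotype and time, with group means and SD as black bars; each panel has its own vertical scale and gives the distance to Tlr4. DKO arrays lie above the WT arrays of the same time for Akna, Megf9, Tle1, Ugcg and Ctnnal1 and below them for Zfp618. These are the genes around Tlr4 whose genotypes did not overlap at either time, so the separation follows from the choice of genes.

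The 5-week and 7-month differences share no arrays, but their tests share a spread estimated over all arrays of both times. Some calls at each time were lost when a single array of the other time was left out. The calls at 5 weeks and at 7 months are therefore not independent. Of the 7 genes called at 5 weeks 6 had the same sign at 7 months, the exception being S100a10, and of the 18 called at 7 months 17 had the same sign at 5 weeks, the exception being Adam15. The 3 genes called at both times were 3 of the 7 called at 5 weeks and 3 of the 18 called at 7 months. Among all genes tested, 99 were called at both times in 1 direction, of 187 called at 5 weeks and 887 at 7 months. Over all 287 flanking genes 159 had the same sign at both times (55.4%), against 58.1% of all genes tested. Both shares include genes without a call. The same-sign share among all called genes was not computed, so the agreement of the called flanking genes has no like value beside it.

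**Figure D5:**
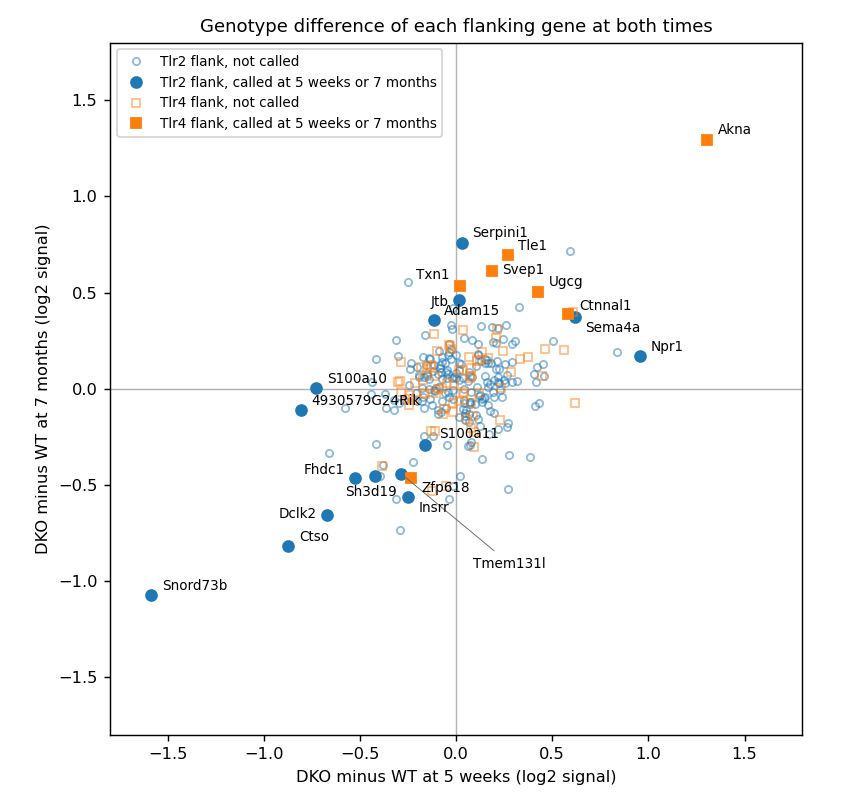
Each point is 1 flanking gene, with its DKO minus WT difference in log2 signal at 5 weeks on the horizontal axis and at 7 months on the vertical axis; circles flank Tlr2, squares flank Tlr4, and filled points passed the test at either time. Akna at 1.30 and 1.30 and Snord73b at -1.59 and -1.07 lie farthest out along the diagonal, while S100a10, Npr1 and Serpini1 lie near an axis.

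No flanking gene passed the test of a different genotype effect at the 2 times (limma interaction, adjusted p under 0.05; 0.0903% of all genes did). At an unadjusted p under 0.05 there were 25 flanking genes (8.71%), against 10.1% of all genes. A trended, robust prior called 1 flanking gene, and leaving out single arrays called 0 to 2.

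With longer time on the diet, 6 flanking genes changed in WT (2.09%, all genes 2.37%) and 27 in DKO (9.41%, all genes 7.57%). These comparisons use the same arrays as the genotype comparisons, and the counts in WT and DKO rest on different numbers of arrays. In WT, Frrs1l, an AMPA receptor assembly gene, rose by 0.67 ± 0.12, Glrb, the glycine receptor beta subunit, by 0.43 ± 0.10 and Serpini1 by 0.44 ± 0.10, while Mef2d, a transcription factor gene, fell by 0.32 ± 0.08, Pappa by 0.49 ± 0.09 and S100a11 by 0.32 ± 0.08. Over all genes 1.35% rose and 1.01% fell in WT. In DKO 17 flanking genes rose (all genes 4.86%) and 10 fell (all genes 2.7%). Serpini1 rose by 1.17 ± 0.12 in DKO (adjusted p = 6.19e-05), Frrs1l by 0.92 ± 0.15 (adjusted p = 0.00166) and Glrb by 0.60 ± 0.12 (adjusted p = 0.00772). Gucy1b1, the beta subunit of soluble guanylate cyclase, rose by 0.67 ± 0.14 (adjusted p = 0.0112) and Trim2 by 0.63 ± 0.15 (adjusted p = 0.0203), while S100a1 fell by 0.57 ± 0.13 (adjusted p = 0.0171). Whether WT and DKO changed differently with time is the interaction, which none of these passed.

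The functional lists are small, so that at the shares over all genes (0.994% at 5 weeks and 4.71% at 7 months) about 0 or 1 call would fall in each, and their counts say nothing about a list as a whole. The epidermal differentiation complex, whose genes build the cornified envelope of skin, had 20 measured members, of which 1 was above the median probe set and none passed at either time (medians 0.07 and 0.06, against 0.008 and 0.014 over all genes). Of 13 S100 genes 1 fell at 5 weeks, S100a10, and 1 at 7 months, S100a11 (medians 0.07 and 0.00). S100a1, a bright member at 8.86 to 9.74, differed by 0.27 ± 0.13 and -0.34 ± 0.11 without passing. None of 6 Fc receptor-like and CD1 genes, all under the median probe set, passed. Of the 3 genes of cyclic GMP synthesis, Npr1 rose at 5 weeks, and Gucy1b1 and Gucy1a1, the soluble guanylate cyclase subunits on the lower side, did not pass: Gucy1b1 differed by -0.02 ± 0.14 and 0.42 ± 0.12 (7-month adjusted p = 0.0554) and Gucy1a1 by -0.43 ± 0.14 and 0.04 ± 0.12.

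None of 11 genes of the nuclear envelope and RNA processing passed at either time, and all 11 were above the median probe set (medians -0.04 and 0.04). Rps27, a ribosomal protein gene, differed by 0.22 ± 0.12 and 0.04 ± 0.10, Ssr2, a translocon subunit gene, by 0.26 ± 0.17 and 0.33 ± 0.14, and Ptbp3, a splicing regulator gene, by -0.22 ± 0.10 and -0.06 ± 0.08. Of 12 membrane trafficking genes Sh3d19 passed, at 7 months, and Rab25 and Scamp3 differed by 0.29 ± 0.10 and 0.22 ± 0.12 at 5 weeks. Among 15 growth factor, matrix and axon guidance genes Svep1 rose and Dclk2 fell at 7 months, and Efna1, an ephrin gene, differed by -0.10 ± 0.16 and 0.00 ± 0.13.

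Around Tlr4, none of 5 major urinary protein genes passed. Neither did any of 7 genes of fibrinogen and acute phase proteins, which the liver makes and of which the fibrinogen genes lie on the Tlr2 side. The bright member Ambp differed by -0.03 ± 0.16 and 0.22 ± 0.13. Of 4 genes of copper, redox and heme handling Txn1 rose at 7 months, of 3 lipid and small-molecule enzymes Ugcg did, and of 5 TNF ligand and other immune genes Akna rose at both times. Il6ra, the interleukin 6 receptor on the Tlr2 side, differed by -0.21 ± 0.11 and -0.06 ± 0.09, and Adar, an RNA editing enzyme, by 0.12 ± 0.12 and -0.19 ± 0.09. The 4 neurotransmitter receptor genes, the 5 ubiquitin ligase and TRIM genes and the 2 mitochondrial genes, Etfdh and Hsdl2, gave no call at either time.

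At the lower Tlr4 edge Ctnnal1 is the outermost gene inside. Abitram, just outside the interval, differed by -0.42 (adjusted p = 0.0746) and -0.08 against 0.58 and 0.39 for Ctnnal1. At the higher Tlr4 edge Ptprd inside (9.09 Mb) differed by 0.46 and 0.21 and Tyrp1 outside (14 Mb) by -0.03 and 0.16. Around Tlr2, Zbbx inside (8.67 Mb) differed by 0.11 and 0.18 and Bche outside (10.1 Mb) by 0.31 and 0.06. Tdpoz3 inside (9.98 Mb) and Spopfm2 outside (10.3 Mb) at the higher edge differed by 0.08 and -0.22 at 7 months. Of these genes only Ctnnal1 passed the test.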

How the data were processed

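Islet RNA of 14 mice was measured on a whole-transcript array. The authors deposited log2 signals; per the submitters' processing notes they used RMA, which corrects background, normalizes arrays and summarises probe sets. Its version was not given in the sources used here. Of 35556 probe sets, 21218 carried 1 gene symbol and gave 18820 genes, each represented by its brightest probe set. Of these, 18790 were matched by Entrez identifier and 15 by symbol to RefSeq GRCm38.p6, which supplied positions, and 15 were not matched. Distance is the gap between the nearest ends of a gene and of Tlr2 or Tlr4.

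The means of the 4 groups were fitted over all 14 arrays and 18820 genes with limma 3.58.1 (lmFit, eBayes) in R 4.3.3, after the fit was tested on simulated data. P-values were adjusted by Benjamini-Hochberg over all genes within a comparison and judged at 0.05. They measure only the spread between these samples, whose number limits the precision. Figures were drawn in Python 3.11.15 with matplotlib 3.10.9.

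Genes are named if they passed the test, lie among the 3 nearest to a locus on each side, or are among the 3 brightest of a functional list; Gatb, Prss48, Rps3a1, Snord73a, Aknaos, the genes at the interval edges (Zbbx, Bche, Tdpoz3, Spopfm2, Abitram and Tyrp1) and those named for a change with time alone fall outside that rule and were named after their values were seen. The flanking genes, the functional lists and the marker lists were chosen with earlier results of these data known. Tlr2, Tlr4, Fdps, Pmvk and Col27a1 are not among the members. Alternatives changed the arrays fitted, the prior, the filter on dim genes, the probe sets used, the normalization, a replicate block, the sample number of the description label or an acinar score as covariate, array weights and the window, and left out each array in turn.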

Additional observations from a re-analysis of the deposited data

Results flagged for a closer look

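Among 204 groups of 4 arrays examined for the 68 named genes, 10 held 1 array far from the other 3, where chance marks about 1 in 20 groups. In genes with a call, Snord73b stood at 6.78 on WT replicate 2 of 5 weeks (others 6.34 to 6.4), Fhdc1 at 8.44 on WT replicate 4 of 7 months (8.15 to 8.2), Ctnnal1 at 7.59 on DKO replicate 3 of 7 months (7.4 to 7.43) and S100a10 at 7.72 on DKO replicate 4 of 7 months (7.19 to 7.28). The first 3 of these arrays lie farther from the other genotype than their fellows do.

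In genes without a call, Ambp stood at 6.51 on DKO replicate 1 of 7 months (others 5.99 to 6.02), Megf9 at 9.07 on DKO replicate 3 (8.93 to 8.95), Gria2 at 6.03 on DKO replicate 2 (6.9 to 7.07) and Astn2 at 2.46 on DKO replicate 4 (3.01 to 3.11). At 5 weeks WT replicate 4 was low for both Hsdl2 at 6.78 (7.02 to 7.06) and Ptbp3 at 9.97 (10.16 to 10.17), which are neighbours near 7 Mb from Tlr4.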

How the results depend on the processing

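Counts of flanking genes called, 7 at 5 weeks, 18 at 7 months and 0 in the interaction, moved with the arrays and the variance model. Where no share over all genes is given, a count does not tell whether flanking genes moved apart from all genes. Fitting only the arrays compared gave 4 and 7. Testing all 35556 probe sets gave 4 and 11. The trended robust prior gave 11 at 5 weeks and 1 in the interaction, the acinar score as covariate 4 at 5 weeks and 12 at 7 months (3.4% of all genes; Adam15, Ctnnal1, Ctso, Fhdc1, S100a11, Svep1 and Txn1 lost), and array weights 28 at 7 months (6.96% of all genes). Within 5 Mb of the loci 4 and 9 of 129 genes were called. Leaving out each array in turn gave 1 to 11 at 5 weeks, 10 to 33 at 7 months and 0 to 2 in the interaction. Centring arrays on the median gave 7 (3 higher, 4 lower) and 21 (14 higher, 7 lower), against 4 and 3, and 9 and 9. Without dim genes there were 9 and 24 of 153 (all genes 2.44% and 10.3%). Of the calls, 1 of 7 at 5 weeks (Snord73b) and 7 of 18 at 7 months (Akna, Snord73b, Sh3d19, Dclk2, Serpini1, Ugcg and Tle1) held under every alternative run for them. Over 3364 alternatives for the named genes, 3191 kept the side of the threshold, 140 lost and 33 gained a call, and none reversed a called value. A change of sign in a value that was called in neither fit was not counted. The cause of these changes was not tested, except that all probe sets means more tests and a narrower window fewer genes.

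Whether replicate numbers pair the samples was not settled. Same-numbered WT and DKO arrays deviated from their group means with correlations of -0.0646 and -0.00637 at 5 weeks and -0.00586, 0.158, -0.0118 and 0.0465 at 7 months. Arrays of different number gave -0.148 to 0.122 at 7 months. Deviations of the 2 DKO arrays at 5 weeks are mirror images, and those within each 7-month group cancel out. These correlations can therefore not exclude a pairing. With the replicate number as a block, 5 flanking genes were called at 5 weeks, 16 at 7 months and 0 in the interaction, with no share over all genes beside them. With 2 DKO arrays, the median standard error was 0.14 at 5 weeks, against 0.12 at 7 months.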
